A study of Homo sapiens with 24 samples.

Results

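The question examined here is which responses to loss of asparagine build up between 6 and 24 h in cells kept in the drug ISRIB. The 12 libraries compared are those made with ISRIB, of 24 libraries in the series, and they were taken by their labels. They come from PC9, an established human non-small cell lung cancer line, grown in RPMI 1640. Cells received fresh medium with or without asparagine at 6 or 24 h before a shared harvest, and each of the 4 ISRIB groups (6 h with asparagine, 6 h without, 24 h with and 24 h without) held 3 biological replicates carrying 200 nM ISRIB. The 12 vehicle libraries, with 0.004% DMSO in place of the drug, had the same media and times. Unless stated, the tests took their estimate of spread from all 24 libraries. All groups shared the same cell line. How much DMSO the ISRIB media held is not stated by the labels, nor is whether replicates were grown on separate days, so the p-values measure the spread between these libraries.

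Cells sense a missing amino acid through uncharged transfer RNA, which activates the kinase GCN2. GCN2 phosphorylates eIF2, and phosphorylated eIF2 inhibits its own exchange factor eIF2B, so that protein synthesis slows while the transcription factor ATF4 is made and switches on genes of amino acid synthesis and uptake, among them asparagine synthetase (ASNS). This is the integrated stress response. ISRIB stabilises and activates eIF2B and so blunts the response downstream of the kinase. The transcription factor NRF2, which drives antioxidant and detoxifying enzymes, and the SREBP factors, which drive sterol and fatty acid synthesis, are separate programmes that also react to nutrients.

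For each gene the withdrawal response was the log2 ratio of the medium without asparagine to the medium with it at the same time, and the time difference was the 24 h response minus the 6 h response. A negative time difference means that the gene stood lower, relative to its own medium control, after 24 h of withdrawal than after 6 h. Levels are CPM (counts scaled to library size, with the scaling factors of edgeR), and levels of different genes are not compared because they are not per length.

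The 12 libraries carried 16737384 to 27495861 counts over genes, with 22911 to 25642 genes at 1 count or more and 6.19% to 8.08% of counts from mitochondrially encoded genes. Of 7 markers of an epithelial or lung adenocarcinoma line, 6 reached 1 CPM in every group, with a summed level of 8130 to 10800 CPM of the library total in any library, and NKX2-1 was at or near 0. Leukocyte markers (4 genes) summed to 0.643 to 2.18 CPM. Fibroblast markers (6 genes, of which only COL1A1 reached 1 CPM) summed to 3.59 to 8.12 CPM in the first 3 groups and to 9.73 to 14.3 CPM after 24 h without asparagine. The sum of 3 endothelial markers, of which CDH5 was the main part at 6 h, was 29.5 to 56.0 CPM after 6 h without asparagine and 4.24 to 5.46 CPM after 24 h without it, with 23.6 to 46.1 and 10.8 to 12.1 CPM in the matching media with asparagine. The part of these markers in the results was not tested. Counts also varied with transcript GC to a different degree in each library, by -0.36 to 0.20 (log2) for each 10 percentage points. The 3 GC-skewed libraries referred to below had the lowest of these slopes: replicate 3 at 24 h with asparagine (-0.36), replicate 3 at 6 h without (-0.35) and replicate 1 at 6 h with asparagine (-0.19).

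Far more genes responded at 24 h than at 6 h. After 6 h without asparagine under ISRIB 284 genes rose (1.63% of 17409 tested) and 116 fell (0.666%), 2.30% in all, and after 24 h 1736 rose (9.97%) and 2119 fell (12.2%), 22.1% in all, by the quasi-likelihood test of edgeR with Benjamini-Hochberg adjustment at 0.05. The direct test of the time difference called 464 genes (2.67%), of which 125 were higher (0.718%) and 339 lower (1.95%). Changes of at least 2-fold made up 27 of the higher and 112 of the lower genes. The median time difference over all genes was -0.021 on the log2 scale. Of 3587 genes called at 24 h and not at 6 h, 406 passed the test of the difference itself, so most of the added calls at 24 h were not shown to differ from their 6 h value.

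Most genes called for the time difference had not passed at 6 h, but neither had most genes tested. Of the 464 called genes 48 had passed at 6 h, against 2.30% of all genes. The lack of a call at 6 h therefore does not mark the called genes out. The 125 higher genes had a median response of 0.01 at 6 h and 0.69 at 24 h. All 125 had risen at 24 h, and 119 of them had not passed the test at 6 h. The 339 lower genes had a median response of -0.02 at 6 h and -0.81 at 24 h. Among these, 287 fell at 24 h without a call at 6 h, 21 fell at both times, 18 had risen at 6 h and did not pass at 24 h, 3 had risen at 6 h and fell at 24 h, and 10 passed at neither time. In 280 of the 339 lower and 106 of the 125 higher genes the change over time was larger in size without asparagine than with it. Without asparagine, 330 of the lower and 122 of the higher genes moved in the direction of the time difference. With asparagine, 203 of the lower and 82 of the higher genes moved in the opposite direction. Median changes were -0.76 and 0.57 without asparagine, against 0.08 and -0.07 with it. The genes were chosen on a contrast that holds both changes, so these counts describe them only. Over all genes, 5622 were called between 6 and 24 h without asparagine and 3024 with it.

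**Figure D1:**
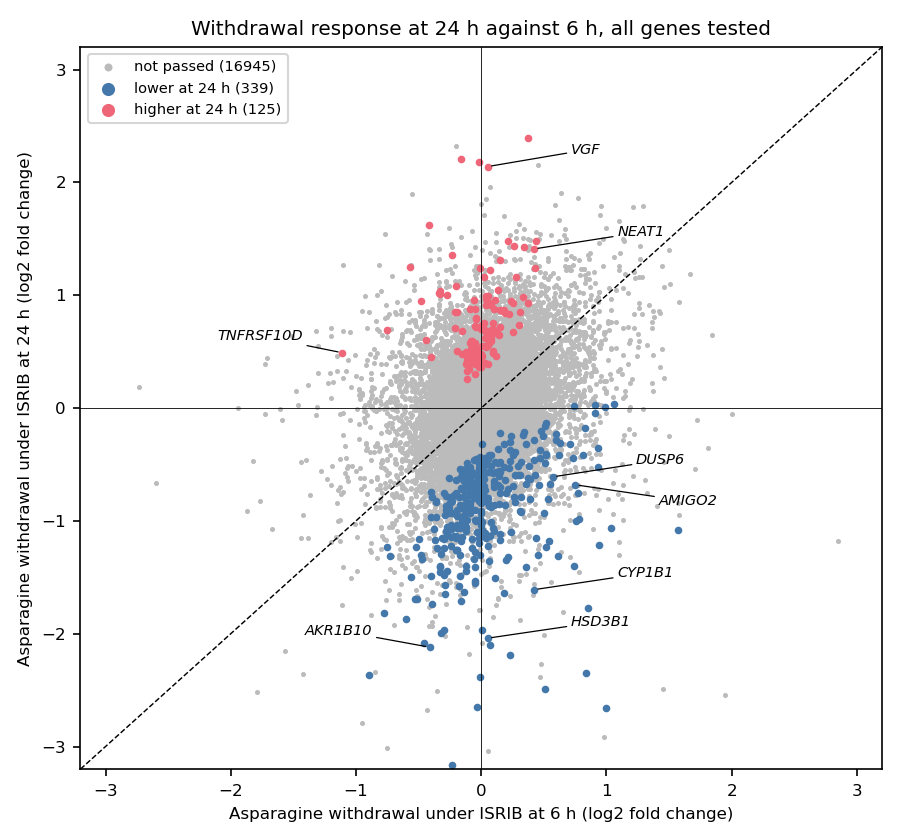
Each point is 1 of 17409 genes, with its log2 response to asparagine withdrawal under ISRIB at 6 h on the x axis and at 24 h on the y axis. Coloured points passed the test of the difference between the times (125 higher, 339 lower), the dashed line marks equal responses, and most coloured points lie above or below 0 on the y axis while staying near 0 on the x axis.

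The count of called genes depended on which libraries and which estimate of spread were used. With the 12 ISRIB libraries fitted alone 53 genes passed (5 higher and 48 lower), and without the 3 GC-skewed libraries 290 passed (67 higher and 223 lower), 241 of them among the 464 and in the same direction. Leaving out 1 library lowered the count by more than 1.5 times for 6 libraries: to 223 and 236 without replicate 1 or 3 at 24 h without asparagine, 295 without replicate 3 at 24 h with asparagine, 255 and 272 without replicate 2 or 3 at 6 h with asparagine, and 247 without replicate 3 at 6 h without asparagine. At 24 h and 6 h the 12 libraries alone gave 2115 and 59 calls. Leaving out replicate 1 at 24 h without asparagine gave 2415 calls at 24 h, and leaving out replicate 2 or 3 at 6 h with asparagine or 3 at 6 h without gave 188, 231 and 218 at 6 h.

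Among the NRF2 targets that fell were aldo-keto reductases, enzymes that reduce aldehydes and ketones with NADPH. AKR1B10 (ENSG00000198074.9; chromosome 7, 134527592 to 134541408, plus strand, protein coding) reduces retinal and lipid aldehydes. At 6 h it stood at 776, 766 and 699.8 CPM with asparagine and at 498, 594 and 590.5 CPM without. At 24 h it stood at 722, 714 and 848 CPM with asparagine and at 175, 170.1 and 182 CPM without. The 3 libraries at 24 h without asparagine lay far below the other 9, and the 6 h groups did not overlap either. The mean at 24 h fell from 761 ± 74.9 to 176 ± 5.83 CPM (SD, n = 3), a response of -2.12 ± 0.09 (SE) on the log2 scale against -0.41 ± 0.09 at 6 h, and the time difference was -1.70 ± 0.12 (adjusted p = 4.9e-08, edgeR).

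AKR1B10P1, a processed pseudogene on chromosome 10 whose sequence derives from AKR1B10, had a time difference of -1.61 ± 0.14. Reads could be shared with AKR1B10, so its value is not a separate observation. AKR1C1, which inactivates progesterone, showed the same order of groups. It stood at 588, 667 and 636 CPM at 6 h with asparagine, 438, 534 and 469 CPM at 6 h without, 697, 663 and 763 CPM at 24 h with and 206, 212 and 217 CPM at 24 h without. The last group lay below all others, and its time difference was -1.35 ± 0.16 (adjusted p = 8.9e-05, edgeR). Its neighbour AKR1C2, which acts on androgens, was at -0.70 ± 0.12. AKR1C1, AKR1C2 and AKR1C3 are related genes of similar sequence, and the authors' counting could split reads among them.

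The list of 22 NRF2 targets had 6 members with a lower time difference and none higher (27.3%, against 2.67% of all genes), with a median of -0.39 against -0.02 over all genes. At 6 h 6 of the 22 had already fallen and none had risen (27.3%, against 2.30% of all genes), with a list median of -0.25. At 24 h 15 members fell and none rose (68.2%, against 22.1% of all genes), and the list median was -0.56. The other members called for the time difference were ME1, the cytosolic malic enzyme that makes NADPH, SLC7A11, the cystine transporter, and PGD, an enzyme of the pentose phosphate pathway, which lies outside the naming rule. ME1 was lower by -0.86 ± 0.20, SLC7A11 by -0.85 ± 0.20 and PGD by -0.56 ± 0.15. ME1 stood at 122, 136 and 130.2 CPM at 24 h without asparagine and at 192.5 CPM or more in the other 9 libraries. GCLM, of glutathione synthesis and named after its value was seen, fell by 1.07 at 24 h. TKT, a transketolase, was nearest to 0 in the list, at -0.04 ± 0.18.

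The calls of ME1 and SLC7A11 were lost without any 1 of the 6 libraries on which the count of calls depended, with adjusted p up to 0.21 and 0.19 over the alternatives. The fall of AKR1B10 at 6 h did not pass without replicate 1 at 6 h without asparagine or replicate 2 at 6 h with it. PGD lost its call without any of 11 single libraries (adjusted p up to 0.10), and AKR1C2 after correction for GC content. The 6 h fall of AKR1C2 was lost without any of 5 single libraries. Without the 3 GC-skewed libraries 4 members remained lower, and with the 12 ISRIB libraries alone 2.

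PRDX6, a peroxidase, and FECH, the last enzyme of heme synthesis, were lower by -0.89 ± 0.11 and -0.86 ± 0.11 (edgeR, adjusted p = 0.00023 and 0.00025). Neither belongs to the list, and both were chosen after their values were seen. They passed in all 25 alternatives tried.

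Falls also lay in cholesterol synthesis, the pathway from acetyl-CoA to sterols whose genes SREBP2 controls. Of 25 genes 6 had a lower time difference and none a higher one (24.0%, against 2.67% of all genes), with a median of -0.37. At 24 h 16 fell and 3 rose (76%, against 22.1% of all genes), with a median of -0.56. At 6 h 1 of the 25 fell and none rose, near the 2.30% of all genes called then, with a median of -0.13. The members that rose at 24 h were TM7SF2, a sterol reductase (0.91), PMVK, a mevalonate pathway kinase (0.47), and EBP (0.30), and their time differences did not pass. The rise of PMVK was lost without replicate 1 or 3 at 24 h without asparagine or 3 at 24 h with it.

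HMGCS1 (ENSG00000112972.14; chromosome 5, 43289395 to 43313512, minus strand, protein coding) makes the precursor of mevalonate. Its 6 h levels were 72.8, 73.5 and 67.7 CPM with asparagine and 65.2, 83.9 and 88.2 CPM without. Its 24 h levels were 66.9, 83.5 and 105 CPM with asparagine and 37.9, 48.1 and 31.3 CPM without. The 6 h groups overlapped, and the 24 h group without asparagine lay below the other 9 libraries. The time difference was -1.27 ± 0.21 (adjusted p = 0.0022, edgeR), from 0.15 ± 0.15 at 6 h to -1.12 ± 0.15 at 24 h.

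SQLE, the squalene epoxidase, was lower by -0.87 ± 0.16 and FDFT1, the squalene synthase, by -0.59 ± 0.12. SQLE stood at 33.1, 38.1 and 33.9 CPM at 24 h without asparagine against 64.6, 66.8 and 88.1 CPM with it. STARD4, a sterol carrier at a mean of only 0.705 CPM and outside the naming rule, was at -2.62 ± 0.70. INSIG1 and IDI1 fell by 1.66 and 1.31 at 24 h and did not pass for the time difference. MVD was nearest to 0 in the list, at -0.02 ± 0.32.

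None of the 6 calls of the list passed with the 12 ISRIB libraries alone, where 53 of all 16833 genes passed. Without the 3 GC-skewed libraries 4 members were lower, where 290 of all 17672 genes passed. STARD4 lost its call without any of 9 single libraries (adjusted p up to 0.13).

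Promoters of 4 of these genes are shown because 15 of 22 NRF2 targets and 16 of 25 cholesterol synthesis genes fell at 24 h. Each is the 250 bases before the annotated start in RefSeq (GRCh38.p14), read 5′ to 3′ on the gene's strand. The motifs searched on both strands were TGACNNNGC, the core of the antioxidant response element bound by NRF2, TCACNCCAC, a sterol response element bound by SREBP, and CCAAT, bound by NF-Y. Capitals mark the antioxidant response element in ME1 (chr6:83431052-83431301, minus strand) and PGD (chr1:10398814-10399063, plus strand). They mark the CCAAT box in HMGCS1 (chr5:43313413-43313662, minus strand) and AKR1C1 (chr10:4963165-4963414, plus strand). The marked matches in PGD, HMGCS1 and AKR1C1 lie on the strand opposite to the one shown, and that in ME1 on the strand shown. PGD also holds 2 CCAAT matches, which are not marked.
ME1: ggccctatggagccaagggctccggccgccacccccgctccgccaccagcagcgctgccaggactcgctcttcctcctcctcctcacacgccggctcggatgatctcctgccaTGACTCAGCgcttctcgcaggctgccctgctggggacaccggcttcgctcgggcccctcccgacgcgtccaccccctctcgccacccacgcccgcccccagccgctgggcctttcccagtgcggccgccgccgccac
PGD: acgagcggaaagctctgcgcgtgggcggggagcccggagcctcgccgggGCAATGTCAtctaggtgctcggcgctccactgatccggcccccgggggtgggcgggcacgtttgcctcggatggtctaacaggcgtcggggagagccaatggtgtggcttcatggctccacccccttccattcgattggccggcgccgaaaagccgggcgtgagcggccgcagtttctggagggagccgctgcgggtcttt
HMGCS1: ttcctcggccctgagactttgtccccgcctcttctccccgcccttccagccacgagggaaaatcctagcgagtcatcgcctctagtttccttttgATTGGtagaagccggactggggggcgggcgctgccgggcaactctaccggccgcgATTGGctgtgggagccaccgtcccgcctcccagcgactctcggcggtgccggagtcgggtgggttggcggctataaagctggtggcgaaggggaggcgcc
AKR1C1: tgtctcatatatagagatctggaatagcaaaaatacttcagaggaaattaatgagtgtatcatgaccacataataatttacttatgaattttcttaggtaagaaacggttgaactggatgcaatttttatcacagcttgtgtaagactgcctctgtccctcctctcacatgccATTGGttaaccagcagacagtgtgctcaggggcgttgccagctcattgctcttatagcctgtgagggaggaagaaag
The antioxidant response element occurred in 4 of 16 NRF2 target promoters found in the table (GCLM, ME1, PGD and TXNRD1), against 11% of 27303 promoters of the same length. CCAAT occurred in 16 of 19 cholesterol synthesis promoters and 9 of 16 NRF2 target promoters, against 33% of all promoters. The sterol response element occurred in 1 of the 19 cholesterol synthesis promoters searched (SREBF2), against 0.875% of all. Promoters were searched for 19 of the 25 cholesterol synthesis genes and 16 of the 22 NRF2 targets. The remaining genes of both lists, some of them called for the time difference, were not searched. The motif counts therefore do not describe either list as a whole. Overlapping matches of the antioxidant response element and CCAAT were found in 35 promoters. These are matches of letters in a short window and no measure of binding.

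**Figure D2:**
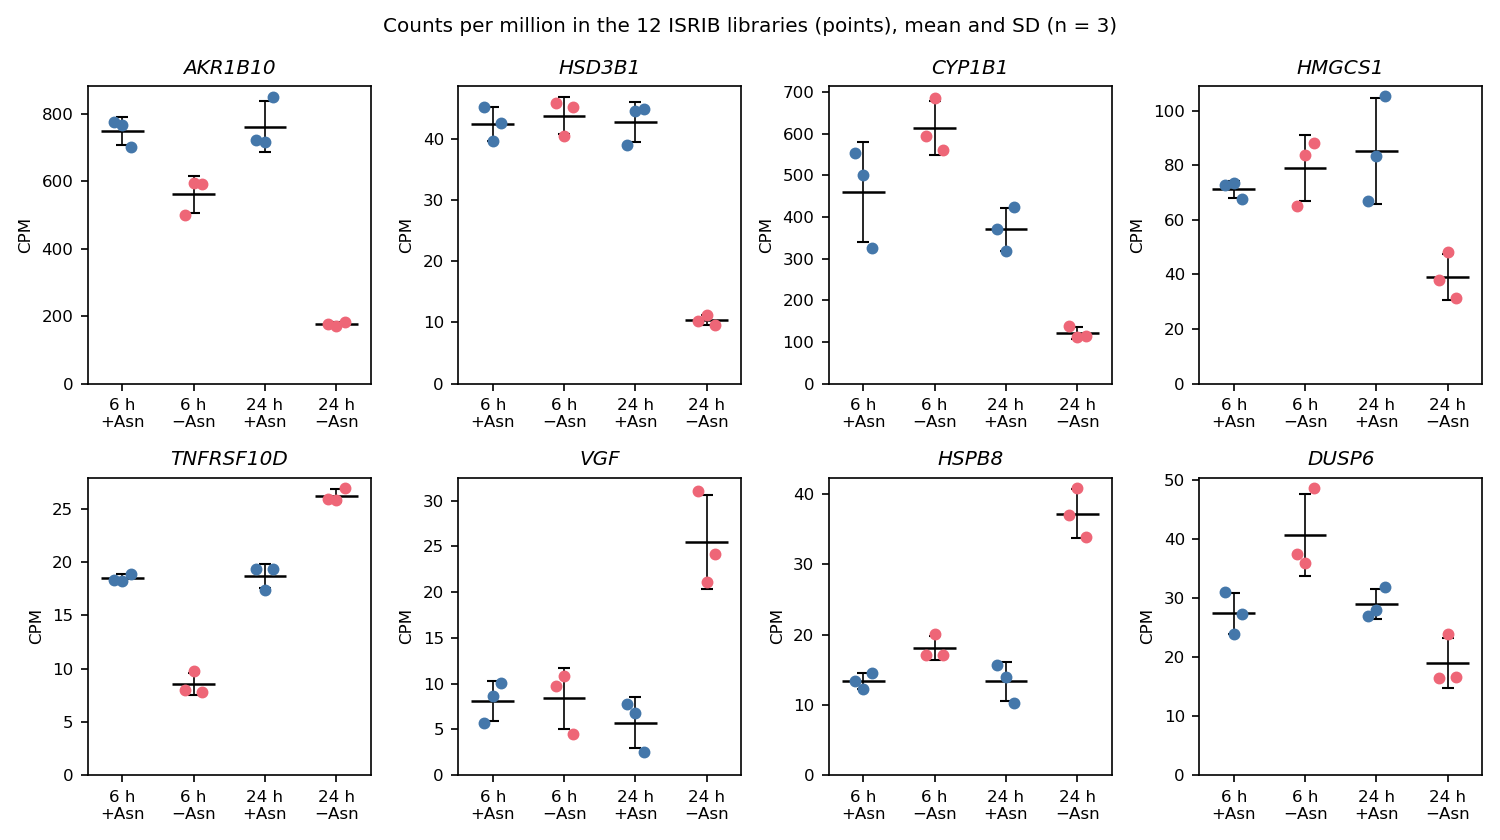
Points are CPM in each of the 12 ISRIB libraries for 8 genes, with the mean and SD (n = 3) of each group, blue with asparagine and red without. AKR1B10, HSD3B1, CYP1B1 and HMGCS1 are lowest at 24 h without asparagine, TNFRSF10D, VGF and HSPB8 are highest there, and DUSP6 is highest at 6 h without asparagine and lowest at 24 h without.

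Among single genes with at least 5 CPM, the 15 lowest time differences ran from -2.17 to -1.40, and the next gene outside was SLC1A1 at -1.36. Beside AKR1B10 and its pseudogene they held further enzymes of steroid, xenobiotic and lipid metabolism. HSD3B1, a hydroxysteroid dehydrogenase of steroid hormone synthesis, stood at 45.3, 39.7 and 42.6 CPM at 6 h with asparagine, 45.9, 40.5 and 45.3 CPM at 6 h without, 39.1, 44.6 and 44.9 CPM at 24 h with and 10.3, 11.3 and 9.65 CPM at 24 h without. The first 3 groups overlapped and the last stood apart, with a time difference of -2.09 ± 0.15 (adjusted p = 4.9e-08, edgeR) and a 6 h response of 0.05 ± 0.11.

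CYP1B1, a cytochrome P450 that the aryl hydrocarbon receptor induces, stood at 554, 499.6 and 325 CPM at 6 h with asparagine and 594, 685 and 559.8 CPM without. At 24 h it stood at 369.8, 318 and 423 CPM with asparagine and 138, 111 and 114 CPM without. The time difference of -2.03 ± 0.29 came with no call at 6 h. CYP4F3, a cytochrome P450 that hydroxylates leukotrienes, fell at both times, by 0.90 ± 0.19 at 6 h and 2.37 ± 0.20 at 24 h, and its 6 h call was lost without replicate 2 at 6 h with asparagine or 3 at 6 h without. IDH1, the cytosolic isocitrate dehydrogenase that makes NADPH, fell at 24 h from 119 ± 30.7 to 36.2 ± 5.35 CPM (SD, n = 3), with a time difference of -1.56 ± 0.25. LPIN1, a phosphatidate phosphatase of lipid synthesis, was at -1.44 ± 0.26.

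The other protein-coding genes of these 15 have varied roles. MAN1A1, a Golgi mannosidase that trims glycans, had the lowest value, -2.17 ± 0.40, at 2.20 to 2.34 CPM in the 24 h group without asparagine against 7.28, 8.82 and 13.4 CPM with it. FYB, an adaptor of immune cell signalling, was at -1.55 ± 0.28, MAP2, a microtubule-associated protein, at -1.49 ± 0.30 and APOL6, an apolipoprotein L family member, at -1.48 ± 0.20. HEG1, a membrane protein of cell junctions, was at -1.43 ± 0.25. C8orf4 was at -2.10 ± 0.51, but neither its response at 6 h (1.04 ± 0.33) nor that at 24 h (-1.06 ± 0.39) passed by itself. RP11-288G3.4, a processed pseudogene whose reads may come from its parent gene, was at -1.40 ± 0.26.

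Of these 15, all except C8orf4, FYB and MAP2 passed in each of the 25 alternatives. FYB and MAP2 lost their call with the 12 ISRIB libraries alone. C8orf4 lost its call in 8 alternatives, among them the omission of single replicates 1 or 2 at 6 h with asparagine, 3 at 6 h without, 2 at 24 h with and 1 or 3 at 24 h without (adjusted p up to 0.12).

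A smaller set of lower genes had risen early and lost that rise. DUSP6, a phosphatase that shuts off ERK, stood at 31.0, 24.0 and 27.2 CPM at 6 h with asparagine and at 37.5, 36.0 and 48.8 CPM without. At 24 h it stood at 27.0, 28.0 and 32.0 CPM with asparagine and at 16.5, 23.9 and 16.6 CPM without. Neither pair of groups overlapped, and the order of the media was opposite at the 2 times. The responses were 0.57 ± 0.14 at 6 h and -0.61 ± 0.14 at 24 h, a time difference of -1.18 ± 0.20 (adjusted p = 0.0024, edgeR). AMIGO2, a cell adhesion molecule, and MMD, a membrane protein named after its value was seen, also rose at 6 h (0.75 and 0.43) and fell at 24 h (-0.68 and -0.59). The 6 h calls of DUSP6, AMIGO2 and MMD were lost with the 12 ISRIB libraries alone, without the 3 GC-skewed libraries, and on leaving out replicate 3 at 6 h without asparagine, with adjusted p up to 0.24, 0.095 and 0.27 over the alternatives, while the time differences of AMIGO2 and MMD passed in all 25 and that of DUSP6 in all except the 12 libraries alone. DUSP6 also lost its 6 h call without replicate 2 or 3 at 6 h with asparagine, and MMD without any of 5 single libraries.

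In the 18 genes that rose at 6 h and did not pass at 24 h, the early rise was between 0.34 and 1.06 on the log2 scale. KLF5, a transcription factor of epithelial growth, stood at 174, 227 and 287 CPM at 6 h without asparagine against 118, 126 and 122 CPM with it, and at 107, 124 and 111 CPM against 104, 101 and 129.9 CPM at 24 h. Its 24 h groups overlapped fully, and its time difference was -0.88 ± 0.20. ERN1, which encodes the endoplasmic reticulum stress sensor IRE1, went from 0.49 ± 0.10 to -0.25 ± 0.10. CDKN2B, an inhibitor of cyclin-dependent kinases, BHLHE40, a stress-responsive repressor, and NCOA7, an oxidation-resistance protein, all chosen after their values were seen, went from 1.06, 0.99 and 0.93 at 6 h to 0.04, 0.01 and -0.35 at 24 h. NCOA7 lost the call of its time difference without replicate 1 or 3 at 24 h without asparagine, and its 6 h call without replicate 1 or 2 at 6 h with asparagine or 3 at 6 h without. ERN1 lost its 6 h call without replicate 3 at 6 h without asparagine, and both genes lost it without the 3 GC-skewed libraries and with the 12 ISRIB libraries alone. KLF5 lost its call without replicate 1 or 3 at 24 h without asparagine, replicate 3 at 24 h with it or replicate 3 at 6 h without it, and without the 3 GC-skewed libraries (adjusted p up to 0.14 over the alternatives).

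The higher genes had smaller time differences at their median (0.66) than the lower ones (-0.84). VGF, a secreted neuropeptide precursor (ENSG00000128564.6; chromosome 7, 101162509 to 101165593, minus strand, protein coding), stood at 5.73, 8.67 and 10.02 CPM at 6 h with asparagine and at 9.77, 10.8 and 4.54 CPM without. At 24 h it stood at 7.82, 6.74 and 2.55 CPM with asparagine and at 31.1, 21.1 and 24.2 CPM without. Only the last group stood apart from the rest. The time difference was 2.09 ± 0.44 (adjusted p = 0.012, edgeR), the largest among genes with at least 5 CPM.

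TNFRSF10D, a decoy receptor for the death ligand TRAIL, was the one gene that fell at 6 h and rose at 24 h. It stood at 18.3, 18.2 and 18.9 CPM at 6 h with asparagine and at 8.01, 9.73 and 7.84 CPM without. At 24 h it stood at 19.4, 17.4 and 19.4 CPM with asparagine and at 26.0, 25.8 and 27.0 CPM without. Both pairs of groups were separate, with responses of -1.11 ± 0.10 and 0.49 ± 0.10 and a time difference of 1.60 ± 0.14 (adjusted p = 5.7e-07, edgeR). HSPB8, a small heat shock protein of chaperone-assisted autophagy, stood at 12.3 to 20.1 CPM in the 6 libraries of 6 h, at 15.7, 13.96 and 10.3 CPM at 24 h with asparagine and at 37.0, 40.9 and 33.9 CPM without. Its time difference was 1.04 ± 0.22 (adjusted p = 0.011, edgeR), and it was the only member called among 14 cytosolic heat shock genes (7.14%, against 2.67% of all genes), whose median was -0.13.

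NEAT1, the long noncoding RNA that scaffolds paraspeckles, stood at 596, 522 and 597 CPM at 24 h without asparagine against 216, 217 and 214 CPM with it, and its time difference was 0.99 ± 0.24. SFN, or stratifin, an adaptor that p53 induces, stood at 396, 357 and 373 CPM against 217, 217 and 135 CPM, with 0.94 ± 0.24. EHD2, an ATPase of caveolae, was at 1.16 ± 0.23, OLFML2A, a secreted olfactomedin protein, at 0.97 ± 0.19 and HIST1H2BK, a histone, at 1.14 ± 0.28. DNAAF3, a factor of dynein arm assembly, was at 1.25 ± 0.33, LRRC46 at 1.18 ± 0.22, SURF2 at 1.02 ± 0.20, ADPRHL1, a relative of the ADP-ribosylhydrolases, at 0.93 ± 0.23 and AKAP8L, a nuclear anchoring protein, at 0.93 ± 0.19. PPIAP29 and AL590762.11 are processed pseudogenes whose reads may come from their parent genes, at 1.09 ± 0.21 and 1.05 ± 0.15. HCFC1R1, the next gene outside the 15, had the same rounded value as the last one inside, 0.93.

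For the 30 genes of these extremes, the 24 h groups with and without asparagine did not overlap in any, and in 28 the 24 h group without asparagine was apart from all 9 other ISRIB libraries. The rule chose these genes on the same contrast, so the counts describe them only. At 6 h the groups were apart in 11 of the 30. How many of all genes were apart in these ways was not counted, so none of these counts can be set against a background. Of the 15 higher genes, TNFRSF10D and AL590762.11 passed in all 25 alternatives, and the other 13 were lost with the 12 ISRIB libraries alone. HIST1H2BK was also lost without any 1 of those 6 libraries (adjusted p up to 0.13). DNAAF3 was lost without those 6 or replicate 2 at 6 h without asparagine (up to 0.19), and SFN without those 6 or replicate 1 at 6 h without asparagine (up to 0.23). NEAT1 was lost without replicate 1 or 2 at 6 h with asparagine, 2 or 3 at 6 h without, 3 at 24 h with, or 1 or 3 at 24 h without (up to 0.14). ADPRHL1 was lost without replicate 3 at 6 h with or without asparagine, 3 at 24 h with, or 1 at 24 h without (up to 0.17).

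In the 5 genes that had risen at 6 h and rose further by 24 h, the steps were small. ZHX2, a transcriptional repressor, went from 0.33 to 0.98, CREBBP, a histone acetyltransferase, from 0.31 to 0.85 and SCNM1, a splicing factor, from 0.37 to 0.93. SRSF4, a splicing factor, went from 0.25 to 0.67, and NFATC2IP from 0.30 to 0.74. These 5 were all the genes of that class and were named after their values were seen. Their calls at 6 h were lost in 5 to 17 of 25 alternatives, including the 12 ISRIB libraries alone for each. In 21 genes that fell at 6 h and fell further, the 24 h response was between -0.62 and -2.37. They included AKR1B10, AKR1C2, CYP4F3 and LRP8, an apolipoprotein E receptor chosen after its value was seen, which went from -0.56 to -1.50 with a time difference of -0.94 ± 0.09. CREBBP lost its call without replicate 1 at 24 h without asparagine (adjusted p = 0.053, edgeR) and NFATC2IP without any of 7 single libraries (up to 0.10).

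Over 32 lists with 633 distinct genes tested, 33 were called, 8 higher and 25 lower (5.21%, against 2.67% of all genes). Of the 586 genes in neither the NRF2 nor the cholesterol list, 21 were called, 8 higher and 13 lower (3.58%). In 11 lists no member passed, in 15 lists 1 did, in 3 lists 2 did, in 1 list 3 did and in 2 lists 6 did. No call was made among 30 genes of DNA replication, 25 proteasome subunits, 18 aminoacyl-tRNA synthetases, 13 mitochondrially encoded genes, 17 YAP and SRF targets, or 16 mTORC1 brakes and amino acid sensors. At 2.67% of all genes, lists of this size hold under 1 call, so these zeros are near the background and say nothing of the lists. The 18 inflammatory cytokines and NF-kB targets had a list median of 0.84 at 6 h and 0.09 at 24 h and no call for the time difference. The calls at unadjusted p below 0.05 over all genes numbered 3138.

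With 1 to 3 calls a list, the genes below are given as single genes and not as changes of their lists. In the machinery that carries the amino acid signal, EIF2AK1, the heme-regulated eIF2 kinase, was lower (-0.34 ± 0.09) and EIF2B4, a subunit of the eIF2B complex that ISRIB binds, was higher (0.63 ± 0.15) of 16 genes (12.5% called, against 2.67% of all genes here and in the next lists). In amino acid and one-carbon synthesis GLUL, glutamine synthetase, was lower (-0.47 ± 0.12) and MTHFD1L, a mitochondrial folate enzyme, higher (0.37 ± 0.09) of 21 (9.52%). In glycolysis and the hypoxia response EGLN3, a prolyl hydroxylase of the hypoxia factor HIF, and SLC2A3, a glucose transporter, were lower (-1.04 ± 0.20 and -0.93 ± 0.21) of 26 (7.69%). EGLN3 stood at 4.95, 3.50 and 5.30 CPM at 24 h without asparagine against 16.3, 16.2 and 16.2 CPM with it. At 24 h 13 of these 26 genes fell and none rose (50%, against 22.1% of all genes).

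Among lysosomal and autophagy genes GABARAPL1 and CTSL were lower (-0.88 ± 0.16 and -0.46 ± 0.11) and MCOLN1, a lysosomal calcium channel, was higher (0.92 ± 0.22) of 25 (12%, against 2.67% of all genes). DDB2, a DNA damage sensor, was the only p53 target called of 19 (5.26%), at 0.56 ± 0.11, with 68.4, 69.6 and 72.7 CPM at 24 h without asparagine and 40.9 to 49.8 CPM in the other 9 libraries. BID, a pro-apoptotic BCL2 relative, was lower by -0.57 ± 0.12, the only call among 19 apoptosis regulators (5.26%). RPL4 was the only one of 50 ribosomal protein genes called (2.0%, near the background), at -0.74 ± 0.12, with 404, 411 and 398 CPM at 24 h without asparagine and at least 635 CPM in the other 9 libraries. FOXM1, a mitotic transcription factor, was higher by 0.51 ± 0.14 of 30 mitosis genes (3.33%) and NOP14, of ribosome assembly, by 0.52 ± 0.11 of 29 (3.45%), both shares near the background. COL4A1, a collagen, was lower by -0.71 ± 0.14, and MX1, an interferon-induced gene named after its value was seen, by -1.08 ± 0.29.

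Several of these single calls rested on few libraries. EIF2AK1, GLUL, MTHFD1L, CTSL, FOXM1 and MX1 lost their call in 11 to 16 of 25 alternatives, including omission of any of 6 to 11 single libraries for each. EIF2B4 and MCOLN1 were lost without any 1 of those 6 libraries (adjusted p up to 0.20 and 0.19), SLC2A3 without replicate 3 at 6 h with or at 24 h without asparagine, and BID without replicate 3 at 24 h without asparagine.

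**Figure D3:**
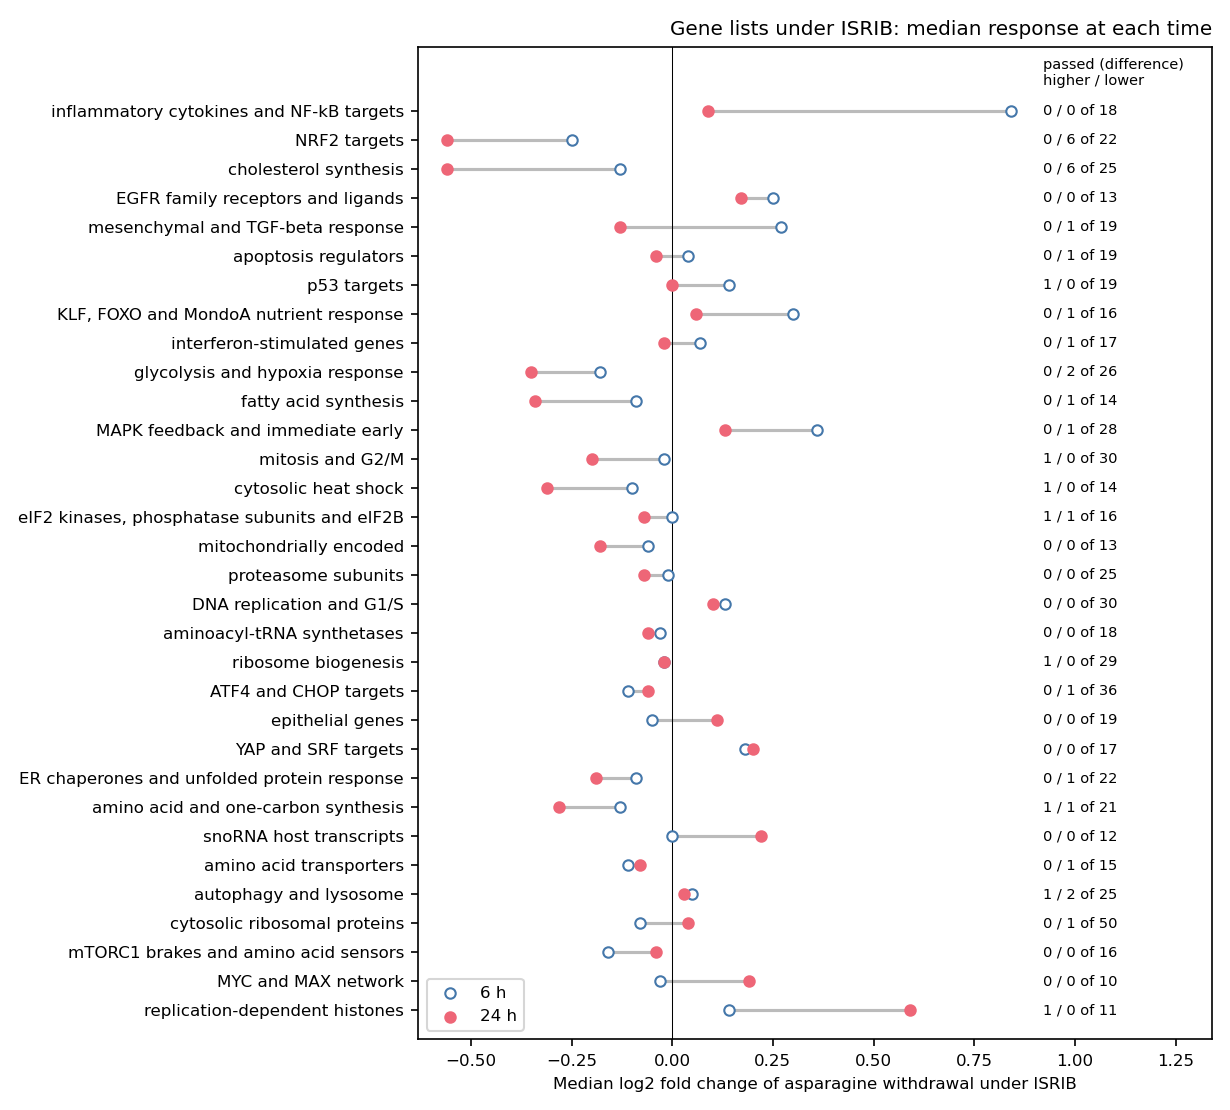
Open and filled circles give the median log2 response to asparagine withdrawal under ISRIB at 6 h and at 24 h for 32 gene lists, with the number of members that passed the test of the time difference, higher and lower, at the right. NRF2 targets and cholesterol synthesis have the lowest 24 h medians (both -0.56) and 6 lower members each.

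Targets of ATF4 and its partner CHOP were called for the time difference at the share of all genes. Of 36 genes tested none had a higher and 1 a lower time difference (2.78%, against 2.67% of all genes), with a median of -0.03. At 24 h under ISRIB 5 rose and 10 fell (41.7%, against 22.1% of all genes), with a median of -0.06. ASNS stood at 30.3, 25.8 and 26.0 CPM at 6 h with asparagine, 28.2, 22.8 and 28.9 CPM at 6 h without, 20.8, 21.0 and 23.7 CPM at 24 h with and 18.0, 18.8 and 17.2 CPM at 24 h without. Its 24 h groups were separate by a small step that did not pass (-0.28, adjusted p = 0.055, edgeR), and its time difference was -0.24 ± 0.14 (adjusted p = 0.38, edgeR). The vehicle means of ASNS in the same order were 29.02, 166, 27.2 and 57.1 CPM.

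Of 12 stress response genes followed throughout, 1 passed for the time difference, SLC7A11, where 2.67% of all genes did. With so few genes this count says nothing of the 12 as a set. PPP1R15A, a subunit of the eIF2 phosphatase, rose at both times (1.10 and 1.26), with its 6 h call lost without replicate 1 at 6 h with asparagine or 2 or 3 at 6 h without. DDIT3, which encodes CHOP, rose at 24 h (0.68), and ATF4, STC2, VLDLR and DDIT4 fell at 24 h (-0.41, -0.71, -0.59 and -0.83). The call of VLDLR was lost in 17 of 25 alternatives and that of DDIT4 without replicate 1 or 2 of either 24 h group. TRIB3, SESN2, ATF3 and CHAC1 passed at neither time, and their time differences were 0.36 ± 0.18, 0.49 ± 0.30, 0.29 ± 0.35 and 1.41 ± 0.85. CHAC1 was at 1.69 CPM or less in all 12 libraries.

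The same contrast was made in the vehicle cells and compared with that under ISRIB. Under vehicle 34 genes had a higher and 179 a lower time difference, and the 2 contrasts share no libraries. The test of ISRIB against vehicle called 127 genes (0.730%), 61 higher (0.350%) and 66 lower (0.379%) under ISRIB. Of these 127, 61 were also among the 464. Of the 339 lower genes 45 differed from vehicle in the same direction and of the 125 higher genes 16, none the other way. The test against vehicle reuses the ISRIB libraries that chose the 464 genes. Agreement in direction is therefore partly built in and is no separate evidence. The rest were not shown to differ between the drug and vehicle. The 127 became 73 or 72 without replicate 2 or 3 at 6 h with asparagine under ISRIB, and 78 without replicate 3 at 24 h without it.

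The 61 genes higher under ISRIB had a median time difference of 0.30 with ISRIB and -0.96 with vehicle, and the 66 lower genes had -0.78 with ISRIB and 0.26 with vehicle. Among the first were stress response genes. Of 36 ATF4 and CHOP targets 13 were higher and none lower (36.1%, against 0.730% of all genes), with a vehicle median of -1.35. ASNS was higher by 1.21, TRIB3 by 2.41, SESN2 by 2.66, DDIT4 by 2.79 and DDIT3 by 1.75. The vehicle means of TRIB3 were 94.2, 360.2, 89.7 and 83.1 CPM at 6 h with, 6 h without, 24 h with and 24 h without asparagine, so its high vehicle level was at 6 h without asparagine. In the ISRIB libraries TRIB3 stayed between 62.4 and 109 CPM.

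Of the 30 extreme genes 7 differed from vehicle, against 0.730% of all genes. The 30 were chosen on the ISRIB time difference, which is part of this test, so the count describes them only. HSD3B1 differed by -1.96 ± 0.21, AKR1B10 by -1.68 ± 0.17 and AKR1B10P1 by -1.73 ± 0.19, and their vehicle time differences were -0.13, -0.02 and 0.12. TNFRSF10D differed by 0.99 ± 0.20, AL590762.11 by 0.93 ± 0.21, PPIAP29 by 1.75 ± 0.30 and NEAT1 by 1.88 ± 0.34. The vehicle value of TNFRSF10D also passed in the same direction, at 0.61 ± 0.14, while that of NEAT1 was -0.89 ± 0.24. In the cholesterol list HMGCS1 and SQLE differed from vehicle (-1.46 ± 0.30 and -1.02 ± 0.23), and in the NRF2 list AKR1B10 and AKR1C1 did (AKR1C1 -1.05 ± 0.22). Over 22 alternatives HSD3B1, AKR1B10, AKR1B10P1, PPIAP29 and NEAT1 kept the call of a difference from vehicle, and TNFRSF10D lost it with no filter on low counts (adjusted p = 0.12, edgeR). AL590762.11 lost it in 12 alternatives, among them the omission of any of 9 single ISRIB libraries and a block on pairs of libraries, and SQLE without any of 6. HMGCS1 lost it with that block and without replicate 3 at 6 h with asparagine. AKR1C1 lost it after correction for GC content and without replicate 3 at 6 h with asparagine, 2 at 6 h without or 1 or 3 at 24 h without. APOL6 and AMIGO2 were lower in vehicle as well, at -1.26 ± 0.19 and -1.10 ± 0.21 against -1.48 and -1.43 with ISRIB, and their differences of -0.22 ± 0.27 and -0.33 ± 0.30 did not pass.

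**Figure D4:**
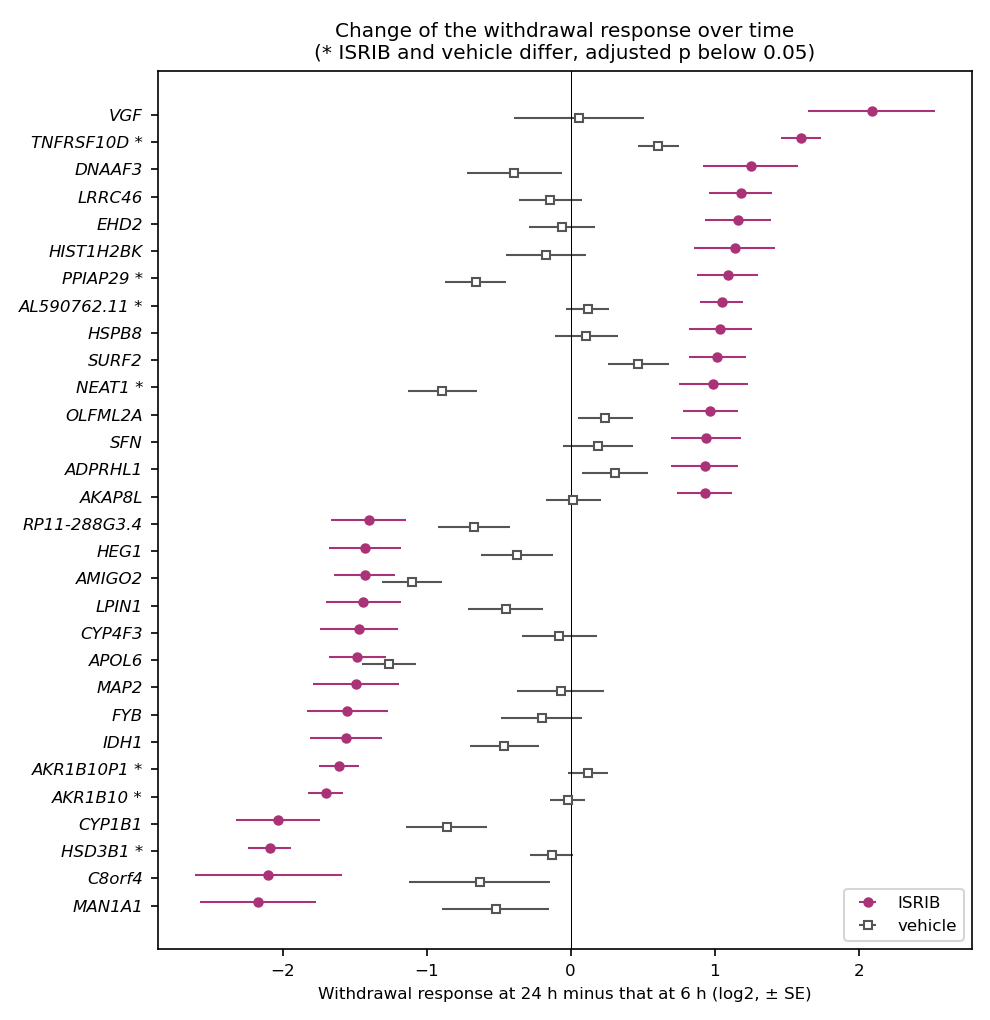
Time differences (log2, ± SE) of the 15 highest and 15 lowest genes under ISRIB (filled circles) beside the same contrast under vehicle (open squares). A star marks the 7 genes in which the 2 differ at adjusted p below 0.05; the ISRIB values set the choice of genes, and APOL6 and AMIGO2 have similar values under both.

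The time difference followed transcript GC content across genes. Over 10 groups of genes ordered by GC the median time difference ran from -0.313 at a median GC of 37% to 0.313 at 63.6%, with a correlation of 0.373 across genes, which share the same 24 libraries. The higher genes had a median GC of 52.3% and the lower genes of 45.3%, against 47.7% for all genes tested. Without the 3 GC-skewed libraries the correlation was 0.0609, and with the GC trend of each library removed it was -0.00622. With the trend removed 491 genes were higher and 928 lower, 438 of them among the 464 and in the same direction. In that setting all 30 extreme genes passed, where 1419 of all 17409 genes did. Of the 25 cholesterol genes 12 lower and 1 higher passed, and of the 22 NRF2 targets 10 lower. Without the 3 GC-skewed libraries 23 of the 30 extreme genes passed and 7 did not. Those lost were C8orf4, ADPRHL1, NEAT1, HSPB8, HIST1H2BK, LRRC46 and DNAAF3.

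**Figure D5:**
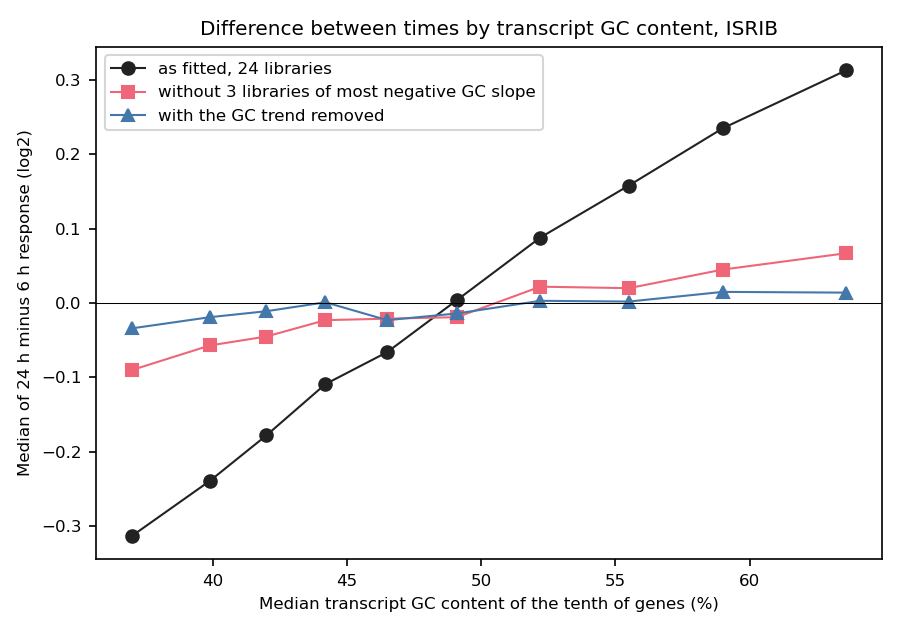
Median time difference under ISRIB (log2) in 10 equal groups of genes ordered by transcript GC content (%), as fitted, without the 3 GC-skewed libraries, and with the GC trend of each library removed. The line as fitted climbs from -0.313 to 0.313, and the other 2 lines stay between -0.09 and 0.067.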

How the data were processed

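RNA of PC9 cells was sequenced in 24 libraries, 3 for each combination of medium, time and drug. The deposited counts are raw reads per gene, aligned and counted with Bowtie2 and featureCounts on hg38 per the submitters' processing notes, with versions not given. The authors also deposited log2 values after a variance-stabilizing transformation made with DESeq2, per the submitters' processing notes, and these entered 1 alternative. Strand setting and library kit are not given in the sources used here, so antisense and overlapping genes cannot be told apart.

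Counts were analysed with edgeR 4.0.16 in R 4.3.3: filterByExpr by group (17409 genes), TMM scaling, 1 mean per group over all 24 libraries (16 residual degrees of freedom), the quasi-likelihood test and Benjamini-Hochberg adjustment at 0.05 over all genes. The filter set aside 0.0751% to 0.098% of the counts of a library. Depth was 16737384 to 27495861 counts in the ISRIB libraries. Alternatives used limma 3.58.1, DESeq2 1.42.0, other filters and scaling, a GC correction, a replicate block, the 12 ISRIB libraries alone, and each ISRIB library left out. The fit was tested on simulated counts that held no GC trend between libraries, so that test does not bear on the shifts with GC content. Symbols and coordinates came from GENCODE 29 (hg38).

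Named genes were the 15 highest and 15 lowest called time differences with at least 5 CPM, 12 followed genes, and from every list at most 4 genes, by lowest adjusted p, plus its gene of highest adjusted p. Others are said to be chosen after their values were seen. The genes and lists were chosen with earlier results of these data known. Some members of the cholesterol synthesis list are counted but not reported here by name.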

Additional observations from a re-analysis of the deposited data

Results flagged for a closer look

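The response to asparagine withdrawal under ISRIB differed between 6 and 24 h in 464 genes, and the change over time differed between ISRIB and vehicle in 127 genes, both by the edgeR test of the difference itself.

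Among the 30 extreme genes, 7 differed between ISRIB and vehicle in how their response changed over time, against 0.730% of all genes. The choice of the 30 used the ISRIB part of this test, so the count describes them only. The difference was -1.96 for HSD3B1, -1.73 for AKR1B10P1 and -1.68 for AKR1B10 on the log2 scale, all lower under ISRIB. It was 0.93 for AL590762.11, 0.99 for TNFRSF10D, 1.75 for PPIAP29 and 1.88 for NEAT1, all higher under ISRIB. AKR1B10 and AKR1B10P1 may share reads, so they are not 2 separate observations.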

How the results depend on the processing

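The number of genes called for the time difference was 464, and it was 474 with RLE scaling, 488 with limma on the deposited log2 values and 539 with a filter of 5 CPM. It was 920 with no filter on low counts, 875 with DESeq2, 53 with the 12 ISRIB libraries alone, 290 without the 3 GC-skewed libraries, 1419 with the GC correction and 1891 with that correction and the replicate block. The 12 libraries alone gave 815 with the GC correction and 293 without the 3 GC-skewed ones, both settings chosen after seeing the data, as was 821 at 6 h with the GC correction. Counts at 24 h (3855) and 6 h (400) became 2115 and 59 with the 12 libraries alone, 5965 and 1427 with the GC correction, 6520 and 1788 with correction and block, and at 6 h 695 with DESeq2. The count for ISRIB against vehicle (127) became 297 with no filter, 802 with the GC correction, 1222 with correction and block, 249 without the GC-skewed libraries and 397 with DESeq2. Leaving out each ISRIB library in turn gave 223 to 641 genes for the time difference, 2415 to 4519 at 24 h, 188 to 540 at 6 h and 72 to 152 for ISRIB against vehicle. The cause of these shifts was not tested.

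Replicate numbers were not taken as pairs. Deviations correlated above 0.1 for all 3 numbers in 1 of 6 group pairs (6 h without against 24 h with asparagine, at 0.407, 0.408 and 0.659), and in 6 of 12 libraries the strongest correlation was with a library sharing the number. With the replicate block the counts were 671 for the time difference, 4446 at 24 h, 555 at 6 h and 210 for ISRIB against vehicle, and with the block set within each time and drug they were 496, 3930, 510 and 127. Of the time differences of named genes, 4727 comparisons with an alternative kept direction and side of the threshold, 287 lost and 258 gained a call, and TGFB1 turned to -0.32 with the GC correction and replicate block.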
